A study of Rattus norvegicus with 6 samples.

Results

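The genes described here encode the parts of the proteasome and the enzymes that attach and remove ubiquitin. They were taken as every probe set that the array's annotation assigns to a single gene whose symbol begins with Psma, Psmb, Psmc, Psmd, Psme, Ube2, Usp or Uchl. This gave 70 of the 8799 probe sets on the array, for 42 genes. A probe set is a group of short oligonucleotides on the array that report 1 transcript or a few related ones. Of the 42 genes, 24 had 1 probe set, 9 had 2, 8 had 3 and Psmd1 had 4. A further 7 probe sets with such a symbol carry several genes, among them those of Psmb6, Psma3 and Psme3, and were not used. Psmb7 and Psmb10 were not analysed here.

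RNA came from rat spinal cord at about T8, and each of 6 samples was measured on 1 one-colour array. The injured group holds 3 samples from the epicenter of a contusion, a blunt blow to the cord, at day 35 after injury, and is called contused below. The other group holds 3 samples from the same level of uninjured animals. The labels give no strain, sex, age, weight or force of impact, and name neither a sham operation nor a time of collection for the uninjured animals. What surgery or elapsed time does and what contusion does thus cannot be told apart. Nor do the labels state that each array is its own animal. The p-values therefore rest on how far these arrays vary, and some of that may be technical.

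The proteasome is the cell's main machine for breaking down single proteins. Its barrel-shaped core, the 20S particle, is built from alpha rings (Psma genes) around beta rings (Psmb genes), and the beta rings carry the cutting sites. The 19S cap recognises ubiquitin-tagged proteins, unfolds them with a ring of ATPases (Psmc genes) and feeds them into the core with the help of other subunits (Psmd genes). In immune cells and under interferon gamma, Psmb8, Psmb9 and Psmb10 take the places of the constitutive Psmb5, Psmb6 and Psmb7, which makes the immunoproteasome, and Psme1 and Psme2 form the activator PA28. Both favour peptides that fit MHC class I molecules. Ubiquitin is passed to its targets through conjugating enzymes (Ube2 genes) and ligases, and is removed by deubiquitinases such as those of the Usp and Uchl genes.

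The injured cord was compared for 4 inducible genes on the array against the constitutive subunits, so the bases upstream of their transcription starts are shown first. Each is the 250 bases before the RefSeq start in the GRCr8 assembly, read 5′ to 3′ on the gene's strand. Capitals mark matches to either of a pair of short motifs through which interferon-activated factors are known to bind, GAAA, any 2 bases and GAAA again (the core of the interferon-stimulated response element, ISRE) and TTCNNNGAA (the gamma-activated site, GAS), both searched on both strands.

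Psmb8: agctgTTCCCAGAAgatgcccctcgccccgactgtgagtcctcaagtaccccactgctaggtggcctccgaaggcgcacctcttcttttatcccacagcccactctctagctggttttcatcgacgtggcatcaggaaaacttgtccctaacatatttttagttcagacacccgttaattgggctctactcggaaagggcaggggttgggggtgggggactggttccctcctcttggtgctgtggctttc
Psmb9: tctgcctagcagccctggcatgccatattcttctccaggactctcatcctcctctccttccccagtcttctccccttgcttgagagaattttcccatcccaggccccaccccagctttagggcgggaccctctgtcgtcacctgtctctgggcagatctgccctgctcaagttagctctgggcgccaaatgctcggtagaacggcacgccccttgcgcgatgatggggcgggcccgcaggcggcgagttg
Psme1: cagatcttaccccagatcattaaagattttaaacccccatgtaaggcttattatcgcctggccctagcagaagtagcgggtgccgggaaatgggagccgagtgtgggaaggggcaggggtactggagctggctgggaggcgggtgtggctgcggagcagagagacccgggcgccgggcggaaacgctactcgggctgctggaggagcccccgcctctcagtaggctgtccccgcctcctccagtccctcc
Psme2: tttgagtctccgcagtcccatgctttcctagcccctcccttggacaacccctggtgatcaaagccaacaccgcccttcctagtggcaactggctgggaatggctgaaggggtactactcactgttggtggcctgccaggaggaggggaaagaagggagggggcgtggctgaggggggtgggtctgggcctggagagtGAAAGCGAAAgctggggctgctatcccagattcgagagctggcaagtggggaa

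The Psmb8 window lies at chr20:4657032-4657281 on the minus strand and held 1 GAS match. Psmb9 lies at chr20:4668750-4668999 on the plus strand and held neither motif, nor did Psme1, at chr15:33038721-33038970 on the plus strand. The Psme2 window, at chr15:33052752-33053001 on the minus strand, held 1 ISRE match, which ends 43 bases before the start. No matches overlapped each other. Over all 33469 windows of this length in the assembly, 3.41% held the ISRE letters and 7.67% the GAS letters. Among the 41 member genes with a window, Psma4, Psmb3 and Psme2 held the ISRE letters and Psmb8 and Uchl1 the GAS letters. A match is a run of letters and not a shown binding site.

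In the assembly, Psmb8 and Psmb9 sit among genes of antigen presentation on chromosome 20, in the order Tap2, Psmb8, Tap1, Psmb9, RT1-DMb. Tap1, which encodes a chain of the transporter that carries peptides to class I molecules, is read in the opposite direction to Psmb9. Their starts lie 456 bases apart, and their upstream windows share 44 bases. The Tap1 window held 1 ISRE match, which thus lies between the starts of both genes but not wholly inside the Psmb9 window. On chromosome 15, only Emc9 lies between Psme1 and Psme2.

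Of the 70 probe sets, 67 had a signal above the detection floor on at least 3 of the 6 arrays and were tested. The floor was a signal of 61.6, the 25th percentile over all arrays. The other 3 were a probe set of Psma5, one of Psma6 and the only one of Ube2d2b, which ran from 7.87 to 37.6 over all arrays. Tests were made with limma over all 6705 probe sets on the array that met this rule, with p-values adjusted by the Benjamini-Hochberg method and a threshold of 0.05. Changes are log2 signal in contused minus uninjured cord.

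Of the 67, 3 passed the threshold as higher in contused cord and 8 as lower. Over all probe sets tested, 7.79% were higher and 9.59% lower, against 4.48% and 11.9% here, so neither share stands far from that of the whole array. The calls lay in a few of the roles. The higher ones belonged to Psmb9 and Psme1, and the lower ones to the 19S cap (Psmc1, Psmc2, Psmc5, Psmd1 and Psmd4) and to Uchl1. The 22 tested probe sets of the constitutive 20S core gave 0 calls in either direction with limma, with 1 lower at an unadjusted p under 0.05. In the conjugating enzymes 0 of 13 passed, and 1 was lower at an unadjusted p under 0.05. The count of lower calls depended on contused array 3: it was 14 without that array, and 5 when any other array was left out. Over all tested probe sets, lower calls rose from 643 to 776 without that array and were 383 to 566 without any other.

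**Figure D1:**
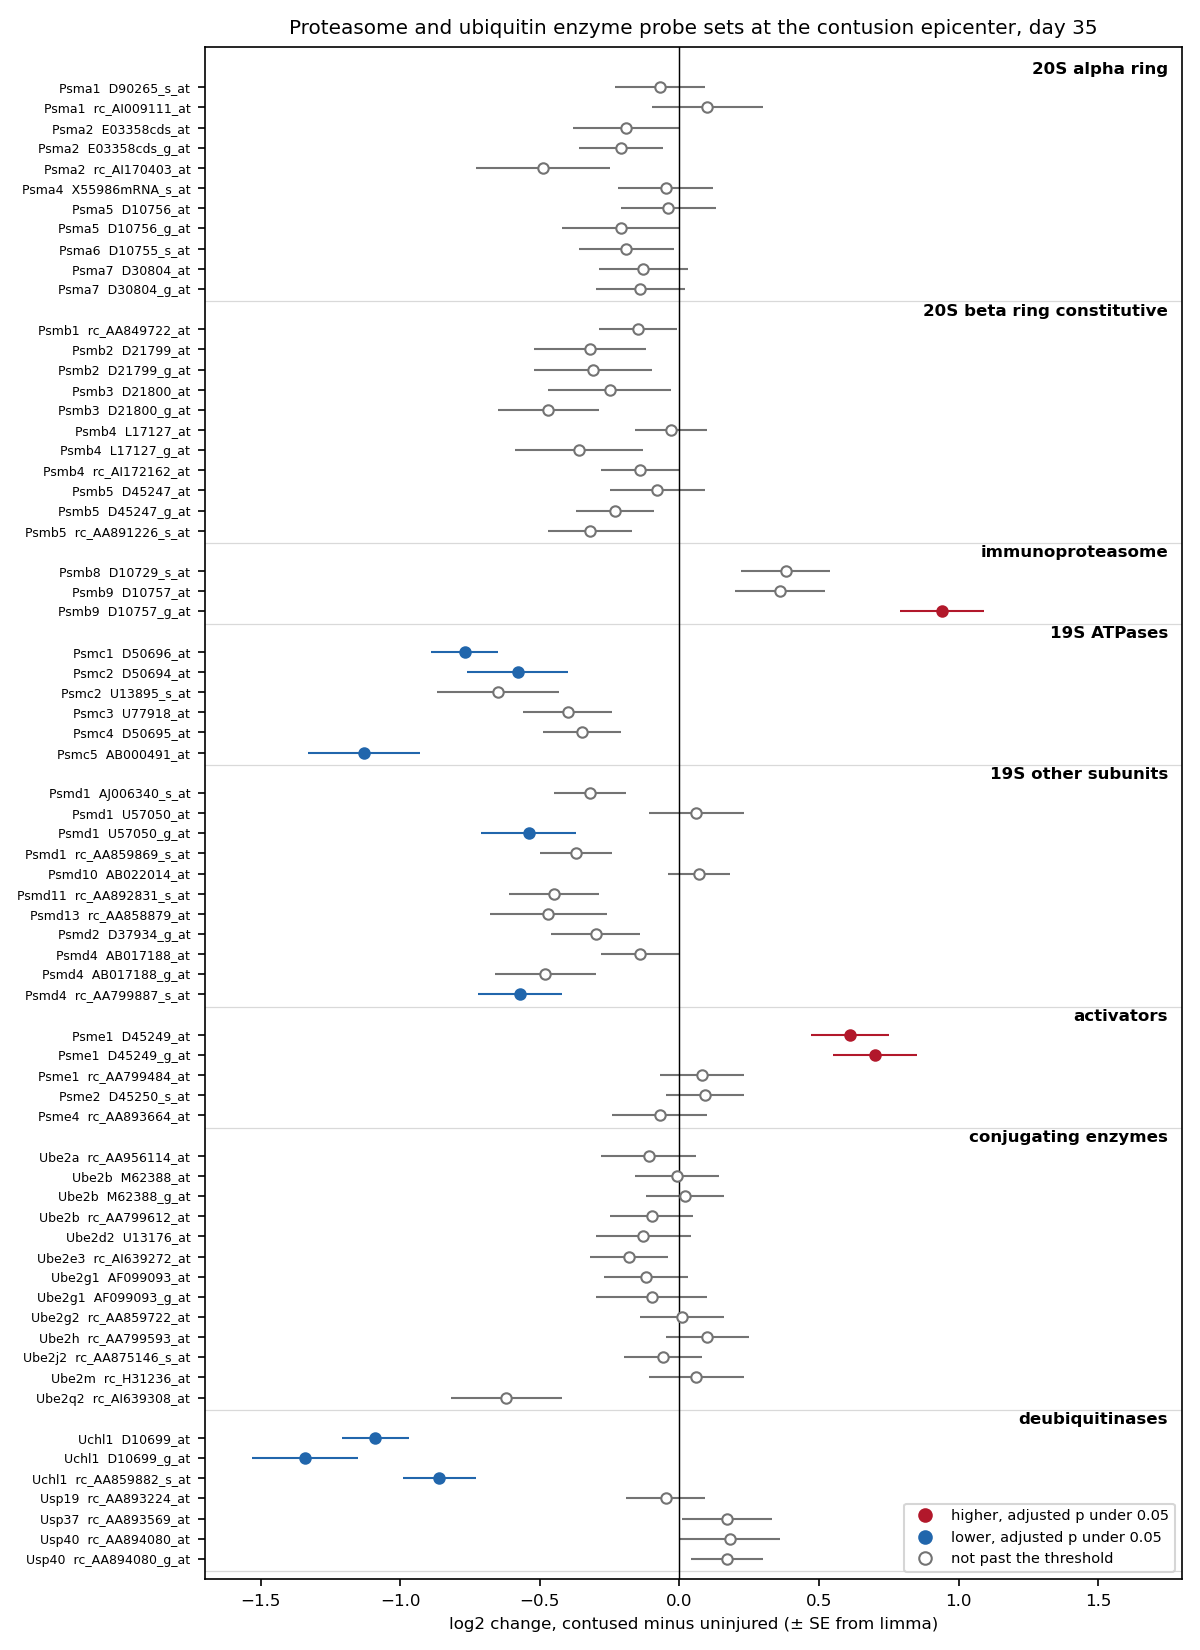
Log2 change (contused minus uninjured) with its standard error from limma for each of the 67 tested probe sets, grouped by role, with filled points past an adjusted p of 0.05. The 20S core probe sets lie between -0.49 and 0.10, the 19S ATPases between -1.13 and -0.35 and the immunoproteasome probe sets between 0.36 and 0.94.

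The immunoproteasome gene Psmb9, whose product replaces Psmb6 in the core, is represented by a pair of probe sets named for the same sequence record. Probe set D10757_g_at read 122, 159 and 141 on contused arrays 1, 2 and 3, against 82.1, 68 and 69 on uninjured arrays 1, 2 and 3. Every contused array lay above every uninjured one, a relation that 16.6% of all tested probe sets showed in this direction. The mean was 141 ± 18.4 in contused cord and 73 ± 7.85 in uninjured cord (SD, n = 3 each), a 1.92-fold rise (log2 change 0.94, SE 0.15, limma adjusted p = 0.00166). The uninjured signals lay close to the floor. The brighter probe set D10757_at read 328, 364 and 277 on the contused arrays, against 240, 229 and 284 on the uninjured arrays. Here the groups overlapped, since contused array 3 was below uninjured array 3, and the change of 0.36 did not pass (SE 0.16, limma adjusted p = 0.149). The pair of probe sets thus had the same direction but differed in size and call.

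Psmb8, which replaces Psmb5, read 129, 156 and 116 on the contused arrays, against 87.2, 115 and 105 on the uninjured arrays. The contused arrays were all higher, contused array 3 by little, and the change of 0.38 did not pass the threshold (SE 0.16, limma adjusted p = 0.143).

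Psme1 encodes the alpha subunit of the PA28 activator. Its probe set D45249_at read 1289, 1317 and 992 on the contused arrays, against 765, 843 and 738 on the uninjured arrays, a 1.52-fold rise (log2 change 0.61, SE 0.14, limma adjusted p = 0.014). D45249_g_at read 577, 596 and 724 on the contused arrays, against 367, 438 and 363 on the uninjured arrays, a 1.62-fold rise (log2 change 0.70, SE 0.15, limma adjusted p = 0.00815). In both, the groups were apart. The third probe set, rc_AA799484_at, was dim, at 106, 114 and 94.9 on the contused arrays against 111, 83.4 and 105 on the uninjured arrays, and its groups overlapped (log2 change 0.08, limma adjusted p = 0.771). The call of D45249_at was lost without contused array 1 (adjusted p = 0.0537), contused array 2 (0.0638) or uninjured array 3 (0.0718), while that of D45249_g_at was kept whichever array was left out (0.0458 or less).

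Psme2, the partner of Psme1 in PA28, read 658, 579 and 653 on the contused arrays, against 625, 514 and 641 on the uninjured arrays. The groups overlapped and no change was detected (log2 change 0.09, SE 0.14, limma adjusted p = 0.711). Psme4, the gene of the PA200 activator, likewise overlapped between groups, at 168 ± 32 in contused cord and 174 ± 17.2 in uninjured cord (SD, n = 3 each).

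**Figure D2:**
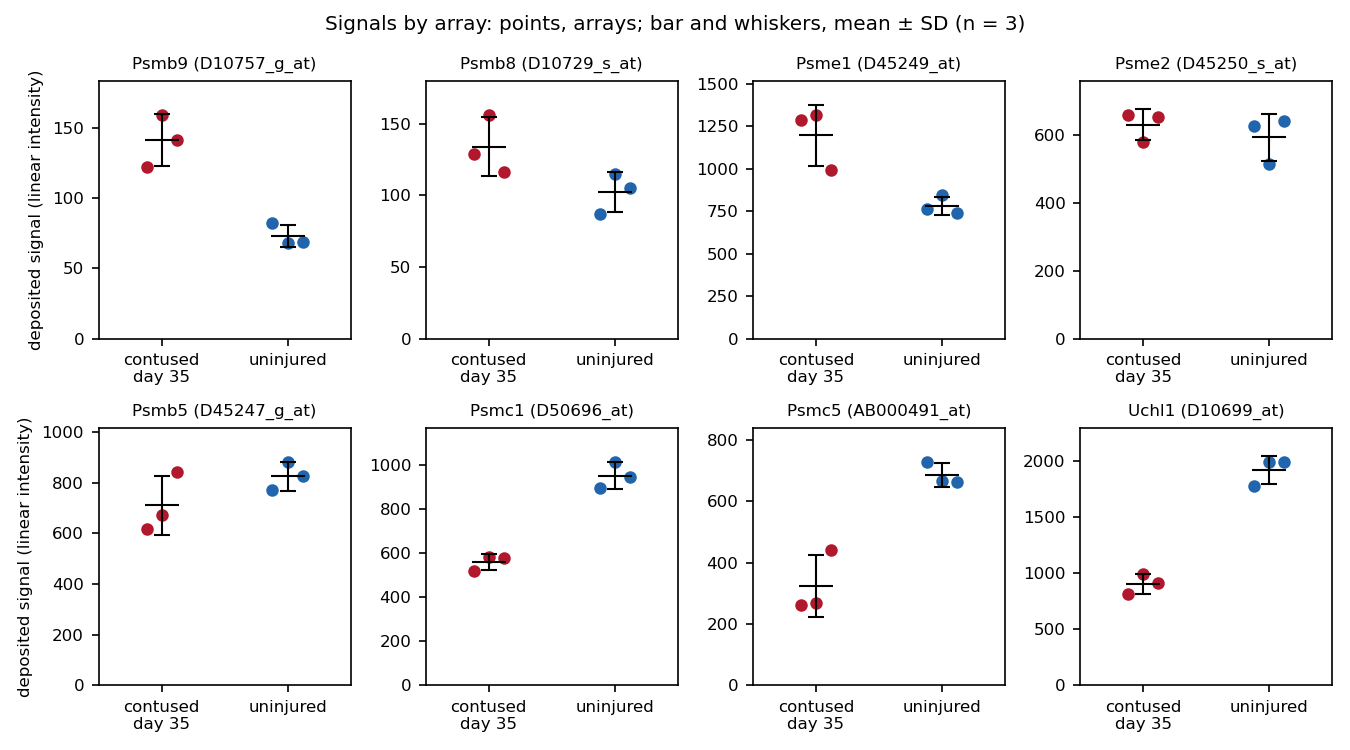
Deposited signal on each array for 8 probe sets, with points for arrays and the mean ± SD of 3 arrays, contused on the left of each panel. Psmb9 and Psme1 lie higher and Psmc1, Psmc5 and Uchl1 lower on all 3 contused arrays, while the groups of Psme2 and Psmb5 overlap.

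No probe set of the constitutive core was called with all arrays in the fit. Its 11 tested alpha ring probe sets, for 6 genes, had a median log2 change of -0.14 and ranged from -0.49 to 0.10, with adjusted p-values of 0.205 or more. The 11 beta ring probe sets, for 5 genes, had a median of -0.25 and ranged from -0.47 to -0.03, with adjusted p-values of 0.0989 or more. Of the 22, 21 had a negative change, where 50.6% of all tested probe sets did and their median was -0.005. With every array set to the same trimmed mean, 19 of the 22 were negative with a median of -0.14, where 44.4% of all tested probe sets were negative and their median was 0.04. With quantile normalization, 19 were negative with a median of -0.09, where 50% of all tested probe sets were negative. As deposited, the median of the 22 was -0.19. In 1 of the 22, a Psmb3 probe set, all contused arrays lay below all uninjured ones, against 18.2% of all tested probe sets. Without contused array 3, Psmb3 D21800_g_at (log2 change -0.60, adjusted p = 0.0473) and Psma2 rc_AI170403_at (-0.79, 0.0105) were called lower.

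Among single core genes, Psmb5 carries the chymotrypsin-like cutting site. Its brightest probe set, D45247_g_at, read 619, 673 and 844 on the contused arrays, against 771, 885 and 826 on the uninjured arrays. Contused array 3 lay inside the uninjured range, and the change of -0.23 did not pass (SE 0.14, limma adjusted p = 0.331). The other Psmb5 probe sets had log2 changes of -0.08 and -0.32, with adjusted p-values of 0.815 and 0.177. The beta ring gene Psmb4 averaged 910 ± 103 in contused cord and 930 ± 52.5 in uninjured cord (SD, n = 3 each). The alpha ring gene Psma7 averaged 582 ± 51.7 in contused cord and 650 ± 120 in uninjured cord, and Psma6 averaged 579 ± 123 in contused cord and 651 ± 7.86 in uninjured cord. All 3 overlapped between the groups.

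To set the inducible subunits against the core on the same array, the mean log2 signal of the 11 constitutive 20S genes, each by its brightest probe set, was subtracted from each inducible probe set. That mean was 8.53, 8.86 and 8.92 on the contused arrays and 8.82, 9.09 and 8.96 on the uninjured arrays, so the groups overlapped. Relative to it, contused minus uninjured cord gave 1.13 for Psmb9 D10757_g_at, 0.55 for Psmb9 D10757_at, 0.57 for Psmb8, and 0.79 and 0.89 for the brighter Psme1 probe sets. In these 5 every contused array lay above every uninjured one. For Psmb9 D10757_at this was by the least margin, with -0.80 on contused array 3 against -0.81 on uninjured array 3. The core mean itself differed by -0.19, which raises each of these differences. How many of all probe sets would separate in this way was not computed. The groups overlapped for Psme2, with a difference of 0.28, and for the dim Psme1 probe set, with 0.27. These are descriptions over chosen genes and carry no test.

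Psmb8 and Psmb5 occupy the same site, and were the only such pair that could be formed. Their log2 difference was -2.26, -2.11 and -2.87 on the contused arrays and -3.14, -2.95 and -2.97 on the uninjured arrays. The difference was higher by 0.61 in contused cord (two-sided exact permutation p = 0.1, the smallest that 3 against 3 arrays can give). Contused array 3 lay next to the uninjured arrays, and neither gene was called on its own. The brightness of different probe sets cannot be compared, so the values say nothing of the amounts of the subunits.

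**Figure D3:**
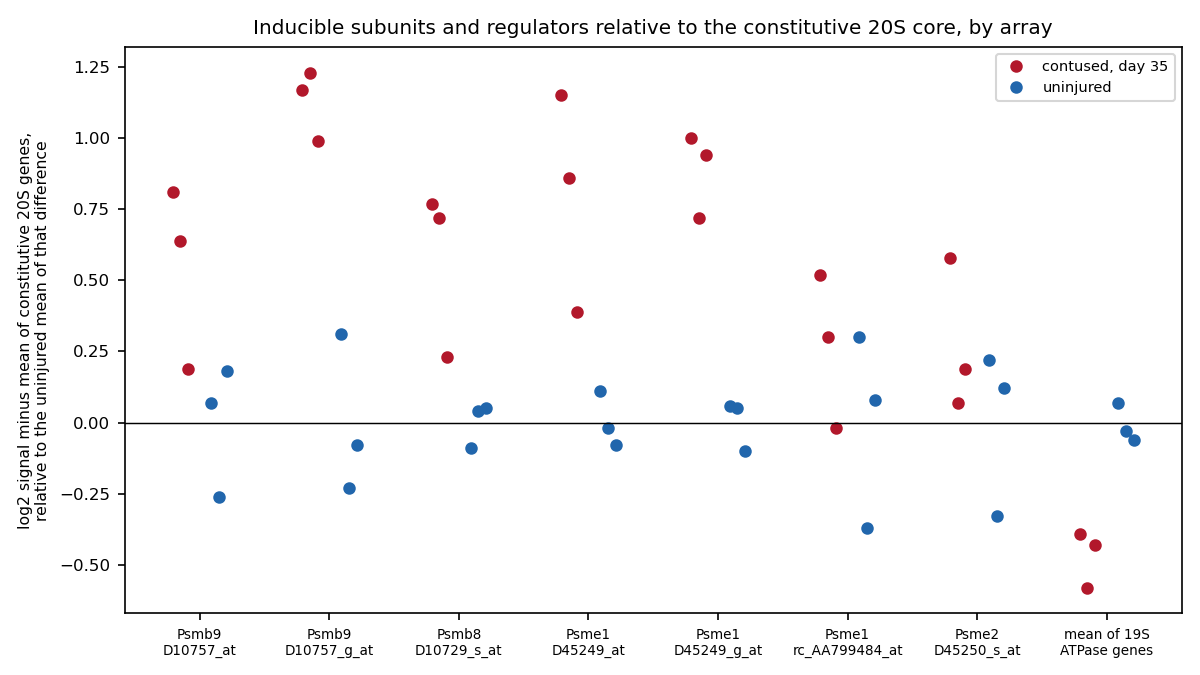
Log2 signal minus the mean of 11 constitutive 20S genes on the same array, drawn relative to the uninjured mean of that difference, with red points for contused and blue for uninjured arrays. Both Psmb9 probe sets, Psmb8 and the brighter Psme1 probe sets lie higher on all 3 contused arrays, and the mean of the 19S ATPase genes lies lower on all 3.

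The 19S ATPases lay lower in contused cord in every probe set. All 6, for 5 genes, had all contused arrays below all uninjured arrays and an unadjusted p under 0.05, with changes from -1.13 to -0.35, and 3 passed the adjusted threshold. Over all tested probe sets, 18.2% lay lower on every contused array and 9.59% were called lower. Psmc5 had the largest of these changes. It read 260, 268 and 440 on the contused arrays, against 730, 666 and 663 on the uninjured arrays, and averaged 323 ± 101 in contused cord against 686 ± 37.6 in uninjured cord (SD, n = 3 each). Contused array 3 was well above the other contused arrays but below all uninjured ones. The fall was 2.19-fold (log2 change -1.13, SE 0.20, limma adjusted p = 0.00301).

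Psmc1 read 516, 580 and 577 on the contused arrays, against 896, 1015 and 944 on the uninjured arrays. The arrays of each group lay close together and the groups far apart, with a 1.71-fold fall (log2 change -0.77, SE 0.12, limma adjusted p = 0.00183). Psmc2 read 207, 228 and 325 on the contused arrays in D50694_at, against 374, 384 and 353 on the uninjured arrays, a 1.49-fold fall that passed narrowly (log2 change -0.58, SE 0.18, limma adjusted p = 0.0484). Its other probe set, U13895_s_at, had a log2 change of -0.65 and did not pass (limma adjusted p = 0.0631). Psmc3 averaged 278 ± 25.5 in contused cord and 369 ± 64.6 in uninjured cord, and Psmc4 averaged 238 ± 16.2 in contused cord and 305 ± 30.2 in uninjured cord (SD, n = 3 each), with adjusted p-values of 0.121 and 0.119. The Psmc2 call was lost without contused array 1 (adjusted p = 0.155), contused array 2 (0.161) or uninjured array 1 (0.116), 2 (0.129) or 3 (0.114), and also with every array set to the same trimmed mean (0.0579).

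Calls among the other 19S subunits, taken here as all Psmd genes by symbol alone, were fewer. Of 11 tested probe sets for 6 genes, 9 had a negative change, 2 passed, and the median was -0.37. Psmd4 encodes a ubiquitin receptor of the cap. Its probe set rc_AA799887_s_at read 143, 169 and 171 on the contused arrays, against 227, 274 and 219 on the uninjured arrays, a 1.49-fold fall (log2 change -0.57, SE 0.15, limma adjusted p = 0.0269). Its other probe sets had log2 changes of -0.48 and -0.14 and did not pass (adjusted p = 0.0875 and 0.566). Psmd1 encodes the scaffold on which further cap subunits sit. Its probe set U57050_g_at read 434, 634 and 613 on the contused arrays, against 721, 878 and 824 on the uninjured arrays (log2 change -0.54, SE 0.17, limma adjusted p = 0.0477). The other Psmd1 probe sets had log2 changes of -0.37, -0.32 and 0.06, and none of these 3 passed (adjusted p = 0.0695, 0.121 and 0.862). Psmd11, Psmd13 and Psmd2 had log2 changes of -0.45, -0.47 and -0.30, with no call, and Psmd10 stayed near the floor on every array.

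Both Psmd calls were kept when contused array 3 was left out, and lost without any other array. Left out in turn, contused arrays 1 and 2 gave Psmd4 an adjusted p of 0.088 and 0.0683, and the 3 uninjured arrays gave 0.054, 0.0852 and 0.0606. In the same order, Psmd1 had 0.125 and 0.0586, then 0.0623, 0.148 and 0.146. Over the Psmc and Psmd genes, 5 of 17 probe sets were called lower, 8 without contused array 3 and 2 without any other one. Over all tested probe sets, 643 (9.59%) were lower with all arrays, 776 without contused array 3 and 383 to 566 without any other one. The mean log2 signal of the 5 ATPase genes minus that of the 20S genes on the same array was -0.42, -0.61 and -0.46 on the contused arrays, against 0.04, -0.06 and -0.09 on the uninjured arrays. The groups did not overlap, and contused cord was lower by 0.46 on average, a description with no test. How often such a difference between gene sets would separate the groups was not computed.

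Uchl1, the ubiquitin hydrolase known as a marker of neurons, had the largest fall among the tested probe sets of the members, in D10699_g_at, and all 3 of its probe sets passed. D10699_at read 809, 989 and 911 on the contused arrays, against 1781, 1997 and 1991 on the uninjured arrays. The highest contused array was far below the lowest uninjured one, and the fall was 2.13-fold (log2 change -1.09, SE 0.12, limma adjusted p = 0.000242). D10699_g_at read 354, 539 and 618 in contused cord, against 1219, 1280 and 1232 in uninjured cord, a 2.54-fold fall (log2 change -1.34, SE 0.19, limma adjusted p = 0.000838). The third, rc_AA859882_s_at, read 1264, 1238 and 998 in contused cord, against 1884, 2162 and 2303 in uninjured cord, a 1.82-fold fall (log2 change -0.86, SE 0.13, limma adjusted p = 0.00157). All 3 calls were kept with any array left out.

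The tissue is a mixture of cells, and in such RNA fewer cells of a type and less RNA per cell cannot be told apart. Neuron markers fell in 10 of 11 tested genes with 0 higher, where 9.91% of all genes tested were lower and 7% higher. The summed signal of the neuron markers was 6975 to 7758 in contused cord, against 14105 to 16572 in uninjured cord. Bright genes such as Nefl weigh most in this sum. Single markers ran from a log2 change of -2.05 for Vsnl1 to 0.00 for Gap43, the one not called, with a median of -1.16. Syt1 was at or below the floor on every array. As a share of the uninjured mean, that sum was 45.6%, 46.4% and 50.7% on contused arrays 1, 2 and 3, where Uchl1 in D10699_at was 42.1%, 51.4% and 47.4%. Uchl1 was at 28.5%, 43.3% and 49.7% in D10699_g_at, and at 59.7%, 58.5% and 47.2% in rc_AA859882_s_at. Psmc5 was at 38%, 39.1% and 64.1% and Psmc1 at 54.2%, 60.9% and 60.7%. Oligodendrocyte markers were lower in 3 of 6 genes, with sums of 12453 to 13454 in contused cord, against 14797 to 15697 in uninjured cord. The part of these cell types in the falls of Uchl1 and the 19S genes was not tested.

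Markers of microglia and macrophages were higher in 10 of 11 tested genes and lower in 0, with sums of 6159 to 6628 in contused cord, against 1657 to 2056 in uninjured cord. Csf1r was the one not called, and its change was negative (log2 change -0.33, limma adjusted p = 0.175). The list's median log2 change was 1.36, and bright genes such as Lgals3 weigh most in the sum. Microglia and macrophages are known to carry the immunoproteasome, and their part in the rises of Psmb9 and Psme1 was not tested. T and B cell markers had 1 of 8 tested genes higher, Cd4, which rat macrophages also make, and sums of 1014 to 1172 in contused cord, against 934 to 1078 in uninjured cord. Astrocyte markers were higher in 2 of 8 genes. Erythroid markers gave 0 calls among 2 genes in limma, with 1 lower at an unadjusted p under 0.05. For all of these lists, the shares over all genes tested were 7% higher and 9.91% lower. The tissue's own defining genes, such as Mbp and Nefl, were bright on all arrays.

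**Figure D4:**
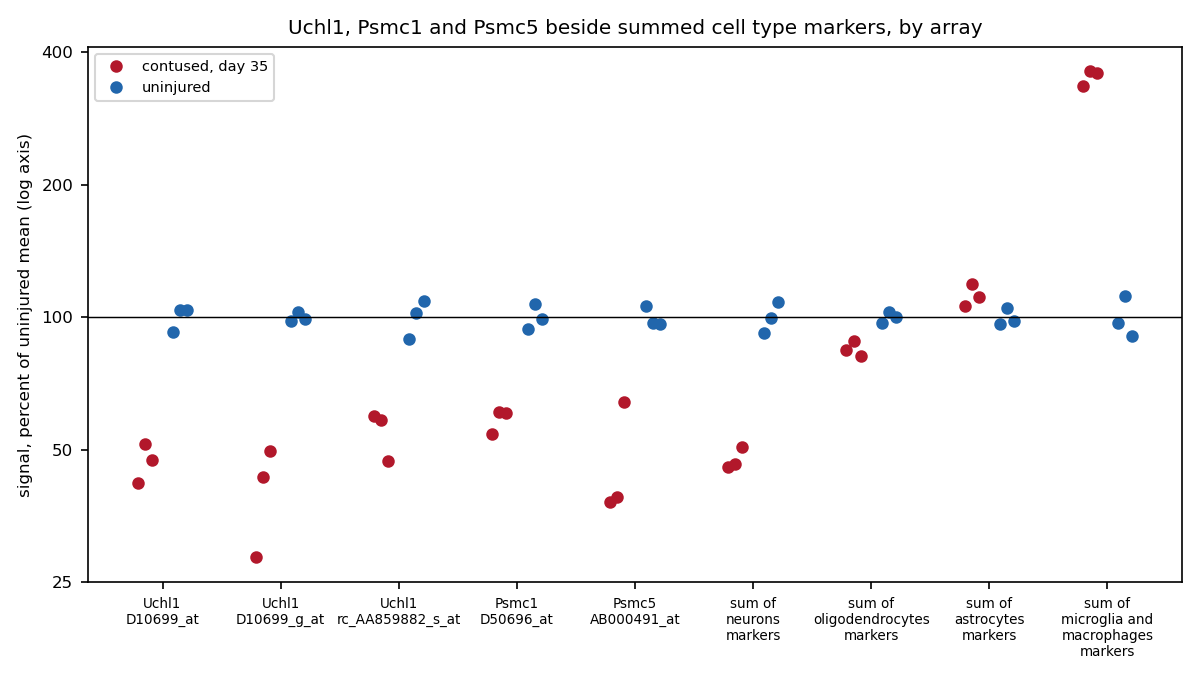
Signal on each array as a percent of the uninjured mean, on a log axis, for Uchl1, Psmc1 and Psmc5 and for the summed signal of 4 marker lists, with red points for contused and blue for uninjured arrays. Neuron markers lie at 45.6% to 50.7% on the contused arrays and the microglia and macrophage markers at 336% to 362%.

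No conjugating enzyme passed the threshold. Their 13 tested probe sets, for 10 genes, had a median log2 change of -0.10 and ran from -0.62 to 0.10. The brightest was Ube2b, a partner of the Rad18 ligase in DNA repair, at 576 ± 72.4 in contused cord and 566 ± 53.3 in uninjured cord (SD, n = 3 each). Ube2g2, which serves the degradation of proteins from the endoplasmic reticulum, was at 458 ± 49.8 in contused cord and 455 ± 56.6 in uninjured cord. The groups of both overlapped. The NEDD8-conjugating enzyme gene Ube2m had a log2 change of 0.06. Only Ube2q2 lay lower on every contused array, at 121, 172 and 206 against 249, 271 and 229 on the uninjured arrays, and it missed the threshold (log2 change -0.62, SE 0.20, limma adjusted p = 0.0542). It was singled out after its values were seen. It was called lower without contused array 3 (adjusted p = 0.0219), and with all arrays under the replicate block (0.0449), no floor (0.0492) or the floor at the 50th percentile (0.0424).

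The Usp deubiquitinases were not called. Usp19, Usp37 and Usp40 had 4 tested probe sets with 0 calls, changes from -0.05 to 0.18 and adjusted p-values of 0.444 or more, and none passed an unadjusted p of 0.05. Usp37 read 227, 170 and 168 on the contused arrays, against 168, 167 and 163 on the uninjured arrays, where contused array 1 alone was clearly higher. The difference between the Usp genes and Uchl1 was not tested.

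Outside these families, a list of 76 other genes of the ubiquitin system had 19 on the array, all tested. Of these 19, 3 were lower and 0 higher, where 9.91% of all genes tested were lower and 7% higher by the brightest probe set of each. The list's median change was -0.22, against -0.016 over all genes. Fbxo2, the F-box protein of brain that recognises sugar chains on misfolded glycoproteins, read 273, 327 and 368 on the contused arrays, against 667, 707 and 706 on the uninjured arrays. Its groups were far apart (log2 change -1.11, SE 0.14, limma adjusted p = 0.000528). The ligase genes Trim32 and Trim3 fell to 153 ± 12.3 and 162 ± 5.08 in contused cord, against 248 ± 28.5 and 226 ± 8.28 in uninjured cord (SD, n = 3 each). Their adjusted p-values in limma were 0.00989 and 0.0302. The Trim32 call was lost without contused array 2 (adjusted p = 0.0516). Trim3 kept its call without contused array 3 and lost it without contused array 1 (0.0733) or 2 (0.0946) and without uninjured array 1 (0.0714), 2 (0.0738) or 3 (0.093).

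The ubiquitin-like protein gene Nedd8 read 938, 1063 and 1010 on the contused arrays, against 1374, 1253 and 1262 on the uninjured arrays, just outside the threshold (log2 change -0.37, SE 0.12, limma adjusted p = 0.0503). Pomp, the assembly factor of the 20S core, overlapped between groups at 937 ± 234 in contused cord and 1065 ± 51.1 in uninjured cord (SD, n = 3 each). Vcp, which extracts ubiquitin-tagged proteins for the proteasome, had a log2 change of -0.05. These 3 were chosen for their roles after their values were seen.

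Of the genes that work with the immunoproteasome in class I presentation, 4 of 8 tested were higher and 0 lower, where 7% of all genes tested were higher. Those 4 were B2m, Tap2, RT1-M3-1 and RT1-N3. The count of higher genes was 1 without contused array 1 or any uninjured array, and 2 without contused array 2 or 3. With all arrays, it was 4 with every array set to the same trimmed mean and 2 or 3 under the other settings. Without contused array 3, 2 genes were called lower. B2m, which encodes the class I light chain, had a log2 change of 0.66 (SE 0.12, limma adjusted p = 0.00306). Tap1, the neighbour of Psmb9, read 231, 508 and 353 on the contused arrays, against 282, 348 and 452 on the uninjured arrays. These overlapped widely (log2 change -0.03, SE 0.27, limma adjusted p = 0.953). Tap2, the other chain of the transporter, read 81.9, 85.2 and 90.2 in contused cord, against 57.3, 68.8 and 69.4 in uninjured cord, close to the floor (log2 change 0.37, SE 0.11, limma adjusted p = 0.0482). Its call was lost whichever array was left out, at adjusted p-values of 0.0556 to 0.144. Of the 2 tested probe sets of the class I-like gene RT1-M3-1, 1 was called. That one rose by 0.52 (adjusted p = 0.0419) and, with 1 array left out, kept its call only without contused array 3. Its adjusted p was 0.0808 without contused array 1 and 0.168 without contused array 2, and 0.122, 0.0598 and 0.13 without each uninjured array in turn. RT1-N3, another class I gene, had a log2 change of 0.58 (adjusted p = 0.0486). It kept its call without contused array 2. Its adjusted p was 0.131 without contused array 1, 0.0651 without contused array 3, and 0.0816, 0.148 and 0.127 without each uninjured array. With all arrays, the RT1-N3 call was lost with the floor at the 10th (0.0556) or 50th percentile (0.0769), no filter (0.17) or quantile normalization (0.0645). The RT1-M3-1 call was lost without the filter (0.0825).

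A list of interferon response and related genes had 4 of 10 tested genes higher and 0 lower, with a median log2 change of 0.38. Over all genes tested, 7% were higher and 9.91% lower, with a median of -0.016. The 4 higher genes of the list were Irf8, Ifitm3, Ifngr1 and Nfe2l2. Of these, Nfe2l2 is a factor of the antioxidant response and not an interferon-induced gene. The interferon-induced Mx1, Mx2, Oas1a, Irf7 and Stat2 had log2 changes of -0.10, 0.32, 0.35, 0.41 and 0.11 and were not called. Irf1 had a log2 change of 0.27 by its brightest probe set, which was not called (limma adjusted p = 0.19). However, 1 of the 2 tested Irf1 probe sets was called higher. For Nfe2l2, too, 1 of the 2 tested probe sets was called. It had a log2 change of 0.63 (limma adjusted p = 0.0405). This call was lost without contused array 2 (0.113) or 3 (0.11) and without uninjured array 1 (0.13) or 3 (0.148). Without contused array 2 or uninjured array 3, the list had 2 genes higher, and without uninjured array 1 it had 3. With all arrays but no filter on dim probe sets, it had 2. Gbp2 was not tested, since it lay at the floor. Irf8, a transcription factor of myeloid cells, rose by 1.36 and Ifitm3 by 1.43 on the log2 scale (limma adjusted p = 0.000107 and 0.000491). Ifngr1, the receptor chain for interferon gamma, rose 2-fold, to 252 ± 80.5 in contused cord against 122 ± 7.09 in uninjured cord (SD, n = 3 each, limma adjusted p = 0.0113), a call lost without contused array 2 (0.0538) or uninjured array 3 (0.0503).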

How the data were processed

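Groups and replicate numbers come from the sample titles. The deposited table gives 1 linear intensity for each probe set on each array, a unit judged from the values, with 21 to 32 values under 0 on an array. The authors' summary and scaling steps, and the build behind the array's design, were not given in the sources used here. After trimming 2% at either end, array means were 209 to 228 and differed by 8.94%, under the 10% limit for use as deposited. Array medians were 122 to 127.

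Gene names came from the array's annotation. All 70 member probe sets matched the GRCr8 gene table by gene ID. Of 8799 probe sets, 59 controls were left out. Values under the floor were set to it (5.94 on the log2 scale), and log2 values were fitted with limma 3.58.1 in R 4.3.3 (lmFit, eBayes with an intensity trend, 4 residual degrees of freedom), two-sided, without covariates. The procedure was tested on simulated data, with fewer probe sets changed than were called in the real data. It called 13 of 67 changes of 0.5 on the log2 scale, 47 of 67 of 1 and 59 of 66 of 2. Of its 128 calls, 9 were false. The number of arrays limits the precision. A gene with several probe sets stands in lists by its brightest tested one. Sequences are from RefSeq, GRCr8. Alternatives were other floors, no filter, other scalings, no intensity trend, a replicate block and leaving out each array.

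Members and gene lists were chosen with earlier results of these data known. The rule was to name the inducible genes and their counterparts, Uchl1, every member past the threshold and the 2 brightest genes of a role with none. For the lists of other ubiquitin system, class I and interferon genes, it allowed up to 3 genes per direction. Marker lists covered microglia and macrophages, neurons, astrocytes, oligodendrocytes, T and B cells and erythroid cells. Outside this rule, other members such as Psmc3, Psmc4, Psme4, Ube2q2 and Usp37 are named with values, as are further genes of these lists. Plots used Python 3.11.15 and matplotlib 3.10.9.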

Additional observations from a re-analysis of the deposited data

How the results depend on the processing

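Under the 8 other settings of the fit with all arrays, the calls of Psmb9 (D10757_g_at, not testable with the floor at the 50th percentile), Psme1 (D45249_g_at), Psmc1 and all 3 Uchl1 probe sets were kept, and so they were with any array left out. Without the filter on dim probe sets, 266 probe sets on the array were higher and 396 lower, against 522 and 643, and among the members 5 were lower, against 8. There Psmc5 (adjusted p = 0.0548), Psme1 D45249_at (0.0641), Psmd4 (0.0669), Psmc2 (0.156) and Psmd1 (0.162) lost their calls, and the cause was not tested. Psmd1 also lost its call with no floor (0.0516), the floor at the 10th percentile (0.0532), no intensity trend (0.0541) or quantile normalization (0.0917), and Psmc2 with the floor at the 10th percentile (0.0528) or quantile normalization (0.0539). With 1 array left out, 276 to 484 probe sets were higher and 383 to 776 lower, and 2 to 3 members higher and 5 to 14 lower.

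Uncalled changes near 0 turned sign: that of Psmb5 D45247_at was 0.03 with quantile normalization and ran from -0.20 to 0.07 with 1 array left out, 0.05 without contused array 1 and 0.07 without uninjured array 2. Without uninjured array 2, Psme1 rc_AA799484_at stood at -0.04 (range -0.04 to 0.16) and Psme2 at -0.01 (range -0.01 to 0.15). The Psmb8 to Psmb5 difference stayed between 0.46 and 0.84 in the settings for which it was computed. With quantile normalization and all arrays it was 0.47, with a two-sided exact permutation p of 0.2, no longer the smallest possible. By the mean of all probe sets of a gene, Psmb9 was called higher and 1 conjugating enzyme gene lower, where 0 were called by the brightest probe set.

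Replicate numbers did not pair the arrays: deviations from the group means correlated at 0.0415, 0.222 and -0.244 for numbers 1, 2 and 3, and only contused array 2 matched its own number best. With the replicate block, 3 members were higher and 10 lower, and over the array 535 were higher and 665 lower. The members gained under the block were Ube2q2 (adjusted p = 0.0449) and the second Psmc2 probe set (0.0451). The change of Tap2 was 0.37 with the floor and 0.40 without it, where its call was lost (limma adjusted p = 0.106). That call was also lost with the floor at the 10th percentile (0.0996), quantile normalization (0.0823), no intensity trend (0.0732) or the replicate block (0.0811). It was kept without the filter (0.0387) and with every array set to the same trimmed mean (0.0253).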
